A study of Bos indicus with 9 samples.

Results

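The 300 strongest stitched domains of open chromatin in the hypothalamus of Brahman cattle are described here. A stitched domain is a run of neighboring ATAC-seq peaks in which no gap between peaks is wider than 12.5 kb. Peaks of the hypothalamus list on chromosomes 1 to 29 that start at or after position 1000000 were joined in this way, which turned 68177 peaks into 30174 domains. The area under the curve (AUC), the deposited signal of each peak, was summed over the peaks of a domain, and the 300 domains with the largest sum were kept. The members were thus chosen by the measured AUC of the hypothalamus, and their AUC, their number of peaks and the length of those peaks are given as a description. They hold 5386 peaks.

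ATAC-seq, in which a transposase cuts accessible DNA, was run on liver, hypothalamus and muscle of 3 unrelated, post-pubertal Brahman heifers (Bos indicus), which gave 9 libraries. The study names no treatment, and the groups compared are the tissues of the same animals. Nuclei came from small pieces of frozen whole tissue, so that each library mixes the cell types of its tissue, and more cells of a type cannot be told apart from more accessible chromatin per cell. The authors combined the 3 heifers into 1 peak list per tissue with coordinates on ARS-UCD1.2. The lists hold no value per heifer and no read count, so that no spread between animals can be given. The paper reports mapping statistics per sample, but depth was not used here.

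Active genes are often surrounded by clusters of enhancers and promoters, short stretches from which nucleosomes are displaced and to which transcription factors bind. Genes that fix the identity of a cell tend to have the longest clusters, whereas promoters of genes that all cells use are open in most tissues. The hypothalamus holds neurons, oligodendrocytes that make myelin, astrocytes, ependymal cells and microglia, and links the nervous system to the pituitary, feeding and reproduction.

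The members made up 0.994% of the domains, 7.90% of the peaks and 13.8% of the summed AUC. Their AUC sums ran from 48680 to 256124 with a median of 66895. The last member, at 23:28936083-28979990, had 15 peaks and a sum of 48680, and the first domain left out, at 15:24651453-24706964, had 19 peaks and a sum of 48560. The curve of sums has no step at that place. A typical member was a cluster and not a single broad peak. The median member held 17 peaks (range 1 to 68) over a span of 69706 bp (range 4669 to 235839), of which 23664 bp were open. Among all 30174 domains, 57.7% were a lone peak and 2.72% had 10 or more peaks, whereas 261 of the 300 members had 10 or more. Open sequence took a median of 36.2% of a member's span (range 14.4% to 100%), and the median gap between neighboring peaks of a member was 1455 bp.

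**Figure D1:**
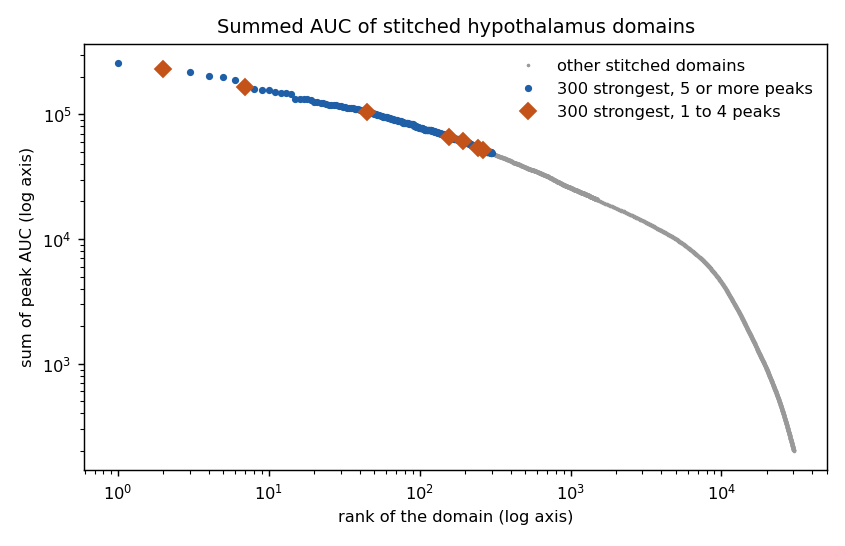
Sum of peak AUC (no unit) of each stitched hypothalamus domain against its rank, both on log axes, with 1 point per domain (the weak domains are thinned). The 300 strongest are colored, and the 7 of them with 1 to 4 peaks are diamonds. The curve runs from 256124 at rank 1 to 48680 at rank 300 with no step between members and other domains.

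Few members owed their place to 1 peak. The strongest peak held a median of 29% of a member's AUC (interquartile range 22.2% to 38.9%), and it held over 50% in 27 members. The peaks inside members were longer than those outside, with a median of 908 bp against 548 bp, and their median AUC was 1271 against 850. The median summit −log10 p was 6.33 in member peaks and 5.97 in the other peaks. A member thus joined a few very strong peaks to many peaks of common strength. Across the 300 members, the number of peaks rose with the span (Spearman's rho = 0.84), and the AUC sum followed the open length (rho = 0.76) more than the number of peaks (rho = 0.33). These 3 coefficients describe members that were chosen by that sum, and no test was made of them. AUC is an area over the length of a peak, so that a relation to open length is built into the measure.

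**Figure D2:**
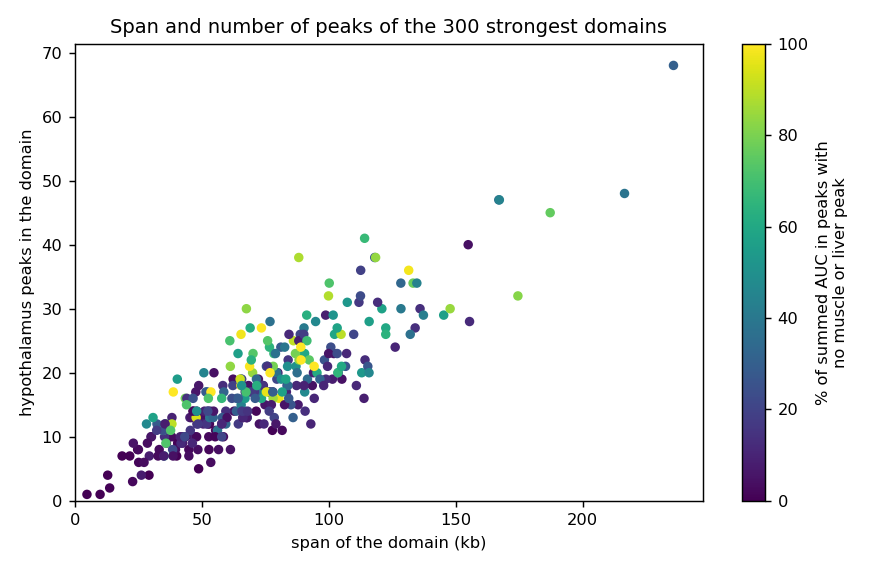
Number of hypothalamus peaks against span in kb for the 300 strongest domains, with 1 point per domain, colored by the percent of its AUC in peaks that no muscle or liver peak overlaps. The domain with 68 peaks stands apart at the upper right, and the domains with 1 to 4 peaks at the lower left are dark, at 7.49% or less.

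The strongest member lay at 21:69572460-69808298 and ended at the last peak of chromosome 21. It was also the longest member and the one with the most peaks. Its 68 peaks had an AUC sum of 256124, and the strongest of them, 10458 bp long, had an AUC of 53214. Muscle peaks overlapped 17 and liver peaks 6 of the 68, and peaks with neither held 30.4% of the sum. This tip of the chromosome was therefore open in several stretches in the hypothalamus that neither of the other lists holds.

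The member of rank 3, at 11:105980178-106135639, held 28 peaks with a sum of 220203. The annotation used here places the starts of C8G, FBXW5 and FUT7 in it or within 10 kb. C8G is a chain of the complement protein C8, FBXW5 is a substrate receptor of a ubiquitin ligase, and FUT7 is a fucosyltransferase that makes selectin ligands. In the RefSeq gene order of a Bos indicus Tharparkar assembly, the stretch between the genes that flank this domain also holds PTGDS, the prostaglandin D synthase of the brain, and GRIN1, a subunit of the NMDA receptor, but which of these the domain covers was not determined. Its strongest peak, 11:106054875-106073914, was 19040 bp long with an AUC of 70140. No muscle peak touched that peak, and the only liver peak on it was 477 bp long with an AUC of 300. By the 1 bp rule it counted as shared with liver, although almost none of its length was open there.

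The members of rank 4, 5 and 6 were long clusters as well. The domain at 7:50836815-51003799 had 47 peaks and a sum of 203181, and 34 of its peaks met neither a muscle nor a liver peak. The domain at 5:116327478-116440037 had 36 peaks and a sum of 198735, with 18 of the peaks met by muscle and 4 by liver. The domain at 5:109683086-109857603 had 32 peaks and a sum of 188229. By the 1 bp rule, 81.7% of its AUC came from peaks with no muscle or liver counterpart, the highest share among the 10 strongest. Its 3 strongest peaks, with an AUC of 35194, 32257 and 14490, were all of that kind. The strongest peaks of the domain of rank 3 counted as shared only through the short peaks given above. Placed genes on both sides of the domain of rank 6, NOL12 and SUN2, flank a stretch that holds SOX10 in the Tharparkar gene order. SOX10 is the transcription factor that drives oligodendrocyte genes, but its start was not placed on the build of the lists.

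The members of rank 8 and 10 were long clusters that were largely shared. The domain at 29:43581496-43736419 had 40 peaks and a sum of 160444. Muscle peaks met 31 of the 40 and liver peaks 16, and 4.0% of its AUC was left without either. FRMD8, which binds the iRhom proteins, starts there. The domain at 7:43648369-43723195 had 15 peaks and a sum of 155410, and 5.84% of its AUC was in peaks with neither. CIRBP, a cold-induced RNA-binding protein, starts there.

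Besides the strongest, the members with the most peaks were 17:51216992-51433532 with 48 peaks, 7:50836815-51003799 and 7:12461098-12628301 with 47 each, and 28:27347743-27534989 with 45. In each of them most peaks met neither a muscle nor a liver peak, but the share of the AUC in those peaks varied. In the domain on chromosome 28, muscle peaks met 6 and liver peaks 1 of the 45, and 75.9% of the AUC of 95491 was in peaks with neither. In the domain on chromosome 17, muscle peaks met 12 and liver peaks 3 of the 48, and the share was 38.5%. In the pair on chromosome 7 it was 35.2% at 7:50836815-51003799 and 44.3% at 7:12461098-12628301. Most of the signal of these 3 domains thus lay in peaks that a muscle or liver peak touched by 1 bp or more. Such contact can be partial. The 3 strongest peaks at 7:50836815-51003799 were 4199, 2046 and 3818 bp long, and the muscle peaks on them 1667, 666 and 339 bp.

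The members of rank 2, 7 and 9 were of another kind, short and almost the same in every tissue. The domain at 27:6216816-6229659 had 4 peaks and a sum of 230200. Its main peak was 6765 bp long in the hypothalamus, 6760 bp in muscle and 6759 bp in liver, and it had the highest summit −log10 p of all members, 37.6. The annotation places MIR2887-1 and MIR2887-2, which are microRNA genes, and LOC783012 at it. The domain at 2:121566472-121576318 was a lone peak of 9847 bp with an AUC of 166945, and the overlapping peak was 9843 bp in muscle and 9835 bp in liver. It too has a copy of MIR2887-1 within 10 kb. The domain at 21:32989110-33029131 had 7 peaks with a sum of 155916, and all 7 met a muscle peak and a liver peak.

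Within their own lists the same 3 places also ranked near the top. The domain on chromosome 27 overlapped the muscle domain of rank 2 and the liver domain of rank 4, that on chromosome 2 the ranks 4 and 5, and that on chromosome 21 the ranks 3 and 2. In all, 7 members had 1 to 4 peaks, and by the 1 bp rule peaks with no muscle or liver counterpart held between 0 and 7.49% of their AUC. Besides those on chromosomes 27 and 2, these were 6:5432979-5462097, 16:81001300-81005968, 19:9465984-9488654, 21:33375997-33389619 and 8:46593074-46619169, which were named after their values were seen. Not all were alike in every tissue. The peak on chromosome 16 was 4669 bp long, and 4689 bp in muscle and 4692 bp in liver. The strongest peak on chromosome 19, of 10268 bp, met 613 bp of muscle peaks and no liver peak. That on chromosome 21, of 6481 bp, met 5441 bp in muscle and 3046 bp in liver. That on chromosome 8, of 4034 bp, met 3013 and 1594 bp. The domain on chromosome 6 had the lowest top summit of all members, 9.64, and its 4 hypothalamus peaks faced a lone muscle peak of 29161 bp and a lone liver peak of 29165 bp. The authors' peak caller gives a read that aligns to several places a fraction of a count at each. Whether that bears on these short domains was not tested.

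Nearly every member was reached by the other tissues. A muscle peak overlapped at least 1 peak of 291 of the 300 members, or 97.0% (95% Wilson interval 94.4 to 98.4), beside 34.5% of all 30174 domains. A liver peak overlapped 261, or 87.0% (82.7 to 90.3), beside 22.4% of all domains. Both did in 260 members, or 86.7%, beside 21.4%, and neither in 8 members, or 2.67% (1.36 to 5.17), beside 64.5%. The intervals cover counting error only. A domain with many peaks has more chances to meet a peak, and the background consists mostly of domains of a lone peak. Among the 560 other domains with 10 or more peaks, 80.5% (77.1 to 83.6) met a muscle peak and 58.0% (53.9 to 62.1) a liver peak, whereas among the 261 members of that size 96.6% (93.6 to 98.2) and 85.1% (80.2 to 88.9) did. The members were still above the other clusters, but the distance was much shorter than against all domains. Both sets have 10 or more peaks but were not matched further, and members reach 68 peaks against 29 outside. The sets also differ in AUC by the rule, and peaks with a larger AUC met the other lists more often. Among peaks outside members, 6.51% met a muscle peak up to an AUC of 500 and 93.5% above 16000. The part of AUC in the remaining distance was not tested. In 252 members, or 84.0%, at least 1 base was covered in all 3 lists.

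How much overlap counts as shared decided the liver value. When at least 50% of a hypothalamus peak had to be covered, 77.3% of members still had a muscle peak, beside 19.8% of all domains, but only 23.0% had a liver peak, beside 4.27%. The deposited peaks had a median length of 543 bp in the hypothalamus, 482 bp in muscle and 431 bp in liver. When a muscle or liver peak had to touch the 200 bp around the hypothalamus summit, the shares were 96.0% and 84.0%.

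Most single peaks of the members, by contrast, had no counterpart. The other lists are shorter, with 40104 peaks in muscle and 22291 in liver beside 78528 in the hypothalamus. The part of list size in the overlap shares was not tested. Of the 5386 member peaks, 1792 or 33.3% (32.0 to 34.5) met a muscle peak, beside 23.5% of all 68177 peaks. A liver peak met 913 or 17.0% (16 to 18), beside 12.9%, and both met 861 or 16.0%, beside 12.0%. Neither met 3542 or 65.8% (64.5 to 67.0), beside 75.6%. Peaks of 1 domain share their surroundings and are not independent, and the intervals do not allow for that. Counted by open sequence, 25% of the 8.0 Mb inside members was also open in muscle, against 21.0% of the 50.3 Mb outside, and 9.76% against 8.97% was also open in liver. Per Mb of open sequence, members held 224 peaks met by muscle against 284 outside, and 114 met by liver against 157.

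The shared peaks of a member were its strong ones, as were those outside members. Outside, peaks met by both tissues had a median AUC of 8079, and peaks with neither 641. Of the strongest peak of each member, 76.7% met a muscle peak and 64.0% a liver peak, and 62 of the 300, or 20.7%, met neither. Among the 261 members with 10 or more peaks these shares were 73.9%, 60.5% and 23.4%. Among the 560 other domains of that size they were 60.0%, 43.6% and 39.5%. Of the peaks below the third place, 25.1% met a muscle peak, 9.08% a liver peak and 74.0% neither. Member peaks met by both tissues had a median length of 2401 bp and a median AUC of 10420, whereas member peaks with neither had a median of 693 bp and 735. The median member therefore kept 20.9% of its AUC (interquartile range 7.49% to 52.9%) in peaks with no counterpart, although such peaks were 65.8% of the member peaks. In 97 members that share was under 10%, in 79 it was over 50% and in 17 it was over 90%. Over all 30174 domains, of which 57.7% were a lone peak, the median share was 100% (interquartile range 18.2% to 100%). The counts under and over these limits were not made for all domains.

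Compared at the same AUC, weak peaks of members met muscle peaks more often than weak peaks elsewhere, and strong peaks less often. Of the 891 member peaks with an AUC from 500 to 1000, 15.7% (13.5 to 18.2) met a muscle peak, against 8.49% (8.04 to 8.97) of 13872 peaks outside. For liver these values were 2.81% (1.91 to 4.11) and 2.01% (1.79 to 2.26), and the intervals overlapped. At an AUC from 4000 to 8000 the values for muscle were 59.2% and 62.1%, and the intervals overlapped. For liver they were 34.0% (30.4 to 37.8) and 40.0% (38.8 to 41.2), so that members were already lower there. Above 8000 members were lower in both tissues. In muscle, 78.3% (75.5 to 80.8) of 944 member peaks met a peak, against 86.6% (85.6 to 87.5) of 4876 other peaks. In liver it was 59.3% (56.2 to 62.4) against 76.4% (75.2 to 77.6). Above 16000, 16.2% (12.5 to 20.7) of 315 member peaks met neither tissue, against 6.53% (4.85 to 8.74) of 628 other peaks. Strong peaks were longer in members, with a median of 3339 bp above 8000 against 2247 bp. With the 200 bp around the summit, the shares above 8000 were 70.4% against 84.8% for muscle and 55.0% against 75.1% for liver. Members are defined by this AUC, so the comparison describes the 2 sets and is not a test.

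**Figure D3:**
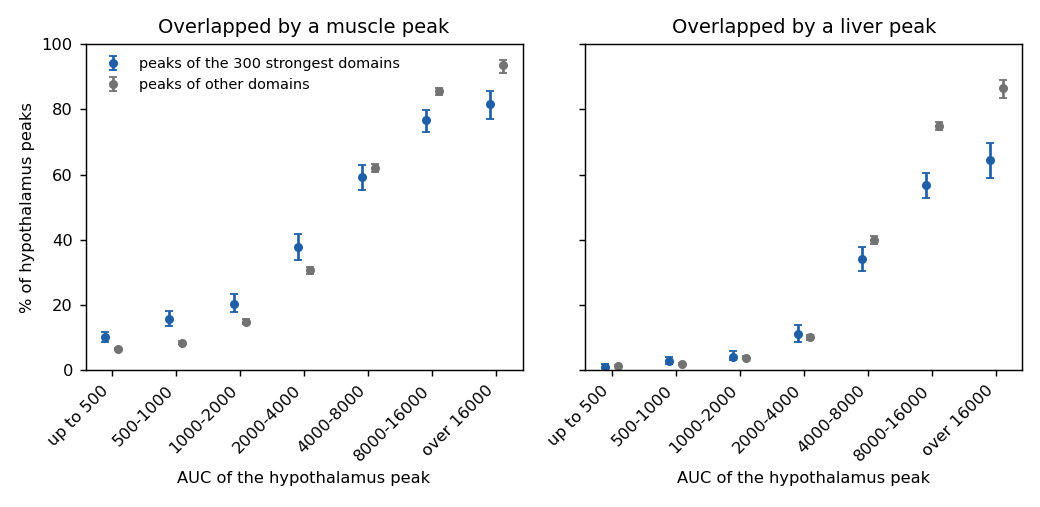
Percent of hypothalamus peaks overlapped by a muscle peak (left) and by a liver peak (right) in 7 classes of AUC, for peaks of the 300 strongest domains and for peaks of the other domains, with 95% Wilson intervals. Above an AUC of 8000 the member peaks lie below the others in both panels, and up to 4000 they lie above them in muscle.

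In 8 members no peak met a muscle or a liver peak. They held 17 to 27 peaks each, spanned 38699 to 94211 bp and had AUC sums from 50443 to 72301, all but 1 of them under the median of the members. The strongest was 13:61868046-61921580 with 17 peaks and a sum of 72301, and its leading peak was 3652 bp long with an AUC of 19761 and a summit of 22.5. The others were 1:2487160-2552511 with a sum of 60685, 11:8979070-9017768 with 56806, 17:4417638-4506585 with 54643, 1:85247794-85321229 with 53435, 11:37858567-37935399 with 51400, 12:16359812-16448860 with 51390 and 11:1831469-1925679 with 50443. The last 3 fall outside the rule for named regions and were added after their values were seen. The annotation used here placed no named gene start in or within 10 kb of the domains on chromosomes 11, 12, 13 and 17.

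Both domains of this kind on chromosome 1 hold the start of a transcription factor gene of the neural lineages. The domain at 1:2487160-2552511 holds OLIG1, a helix-loop-helix factor of oligodendrocytes and their precursors, and in the Tharparkar gene order OLIG2, its partner in the same lineage, lies between the same flanking genes. It had 18 peaks, and the 3 strongest, with an AUC of 11172, 9973 and 9070, sat toward opposite ends of its 65352 bp. The domain at 1:85247794-85321229 holds SOX2, a factor of neural stem cells and glia, with 27 peaks over 73436 bp. The 3 strongest of these had an AUC of 12444, 9022 and 6637 and lay in the part nearest to the end of the domain. Across both domains the muscle and liver lists had no peak at all between the hypothalamus peaks either, as the map of 5 domains shows.

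**Figure D4:**
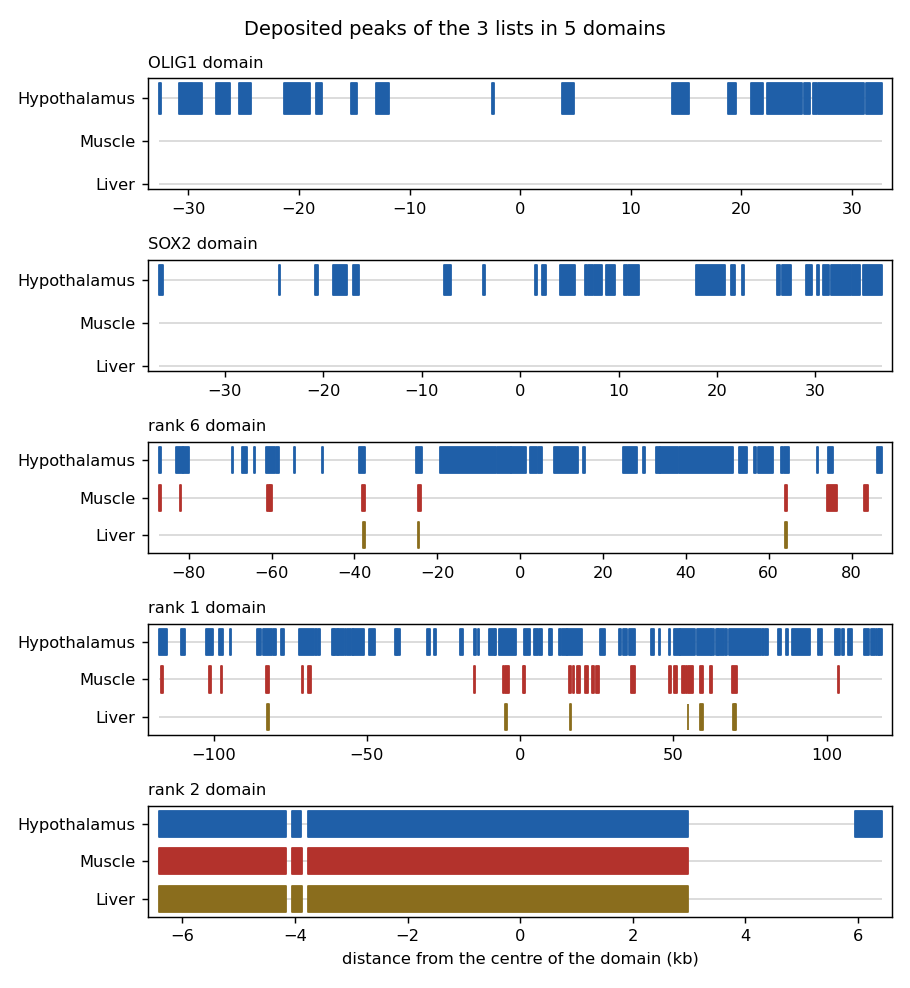
Deposited peaks of the hypothalamus, muscle and liver lists, drawn to scale as bars against the distance in kb from the centre of 5 domains (the OLIG1 and SOX2 domains and those of rank 6, 1 and 2). The OLIG1 and SOX2 domains hold 18 and 27 hypothalamus peaks and none of the other lists, the rank 6 and rank 1 domains hold scattered muscle and liver peaks, and in the rank 2 domain the long peaks of all 3 lists coincide.

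A further 9 members had over 90% of their AUC in peaks with no counterpart while 1 or more of the other peaks were shared. The strongest of the 17 in all was 24:2251141-2337193, of rank 19, with 25 peaks, a sum of 130603 and 90.5% without a counterpart, and muscle peaks met 4 of its peaks and liver none. The domain at 19:51517395-51597774, of rank 49, owed 69.7% of its sum of 101907 to the peak 19:51556113-51577764. That peak was 21652 bp long with an AUC of 71043 and a summit of 23.9, and it was the strongest member peak with neither a muscle nor a liver peak. The next in AUC were 15:75928088-75936632 with 35676 and the pair in the domain of rank 6 given above. These regions were picked after their values were seen.

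The same rule applied to the muscle and liver lists gave 300 domains in each that were smaller. The 300 strongest muscle domains had a median of 9 peaks and a span of 37346 bp, and those of liver had 3 peaks and 9096 bp. AUC is not scaled between lists, and only ranks within a list were used. Of the members, 112 or 37.3% (32.1 to 42.9) overlapped one of the 300 strongest muscle domains, beside 1.29% of all hypothalamus domains, and they covered 117 or 39.0% of those muscle domains. With liver, 87 or 29% (24.2 to 34.4) did, beside 0.988%, which covered 93 or 31.0% of the liver domains. In 69 members, or 23.0%, both held. Whole spans were overlapped, gaps included, so such an overlap need not hold a shared peak. The median span was 69706 bp in members and 1352 bp in all hypothalamus domains. A longer span has more chances to meet a domain, and no comparison at equal span was made. The lists come from the same animals. Of the 10 strongest members, 9 overlapped one of the 300 strongest muscle domains and 6 one of the liver domains. The exception in muscle was the domain of rank 6, which overlapped the muscle domain of rank 756.

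Many members lay near another member. Another member lay within 1 Mb of 206 of the 300, or 68.7%, and within 100 kb of 63, or 21.0%. The same count was not made for all domains or for another set of 300. Whether members lie closer together than other domains was therefore not tested. The longest run, with no gap over 1 Mb, was at 18:52580611-56672154 with 9 members and 135 peaks, followed by 19:25595990-27852796 with 8 members and 3:14069179-16852619 with 7. Peaks without a counterpart held a median of 15.5% of the AUC in members that had another within 1 Mb and 37.6% in the 94 that had none. The interquartile ranges, 5.84% to 39.0% and 11.2% to 67.9%, overlapped widely, and no test was made.

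Their spread over the chromosomes was uneven. Chromosome 19 held 32 members, or 2.99% (2.1 to 4.2) of its 1069 domains, chromosome 25 held 18, or 2.81% of 640, chromosome 18 held 25, or 2.39% of 1046, and chromosome 29 held 15, or 2.32% of 646. Chromosome 1, with the most domains of all, 1655, held 3, or 0.181% (0.0617 to 0.532), and chromosome 4 held 2 of 1338. Members were also frequent toward the distal end. Within 1 Mb of the last peak of a chromosome lay 25 members, or 8.33% (5.71 to 12.0), beside 1.72% of all domains, and within 10 Mb lay 92, or 30.7%, beside 14.9%. The last of 10 equal parts of the chromosomes held 24.0% of the members and 12.4% of all domains, and the third part held 4.33% and 9.39%. Gene density and base composition along the chromosomes were not analysed here, and their part in these counts was not tested.

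**Figure D5:**
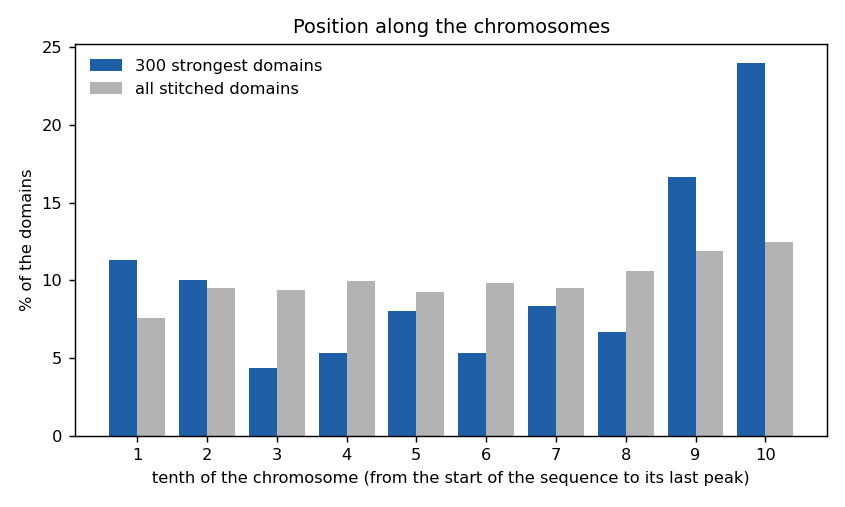
Percent of the 300 strongest domains and of all 30174 stitched domains whose midpoint lies in each of 10 equal parts of its chromosome, counted from the start of the sequence to the last peak, over chromosomes 1 to 29. The bars of the strongest domains are above those of all domains in the first part, and reach 24.0% against 12.4% in the last.

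Gene names could be given for part of the members only. The annotation used here covered part of the genome and placed the start of a named gene in or within 10 kb of 81 of the 300 members. It placed 23 of 219 genes from lists of cell type markers, hypothalamic genes, SOX factors and early response genes, and 5 of the 23 lay at a member, beside 125 of all 2012 placed gene names, or 6.21%. Besides OLIG1 and SOX2 these were JUNB, JUND and FOS, which code for subunits of the AP-1 transcription factor that is induced by cell activity. In all, 7 early response genes were placed. The others, FOSL2, JUN, NR4A1 and NR4A2, lay at no member, although each had 1 or 2 hypothalamus peaks at its start. The JUNB domain, 7:12696568-12790508, had 20 peaks and a sum of 92585, and muscle peaks met 11 and liver peaks 5. The JUND domain, 7:4875411-4917703, had 10 peaks and a sum of 58653, and muscle peaks met 7 and liver peaks 6. The FOS domain, 10:86454647-86525328, had 17 peaks and a sum of 54689, and muscle peaks met 10 and liver peaks 4. These 3 domains kept 8.33%, 8.26% and 15.7% of their AUC in peaks without a counterpart, far from the 100% of the OLIG1 and SOX2 domains. Between flanking genes of a member in the Tharparkar gene order, which could be followed for 63 members, lay OLIG1, OLIG2 and SOX10, the astrocyte genes FGFR3 and MLC1, SOX15, and CASQ1, a calcium-binding protein of skeletal muscle. Such a stretch can reach beyond the domain, and these genes were not placed by it in a member.

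The starts of the placed marker genes were used to check the label of the list. Within 1 kb of the start of the neuron gene MAP2 and of the oligodendrocyte genes CLDN11, GPR37, TF and OLIG1, the hypothalamus list held 1 or 2 peaks and the muscle and liver lists none. The astrocyte genes S100B and NFIA and the forebrain factor DLX1 each had 1 hypothalamus peak and 1 muscle peak at the start, and DLX2 had 1 hypothalamus peak only. The start of MYOG, a factor of skeletal muscle, had 2 muscle peaks and no hypothalamus peak. The liver gene AHSG, which codes for fetuin-A, had 2 hypothalamus peaks and no liver peak at its start, which goes against its use as a liver marker here. The pituitary genes GH1 and POU1F1, the neuron gene RBFOX1 and the neuropeptide gene SST had no peak in any list. None of these genes other than OLIG1 lay at a member.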

How the data were processed

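ATAC-seq reads were aligned by the authors to ARS-UCD1.2 with HISAT2, with several alignments kept per read, and peaks were called with Genrich 0.6.1 with PCR duplicates removed, the mitochondrial chromosome left out and the replicates combined into 1 list per tissue. The deposited signal of a peak is its AUC, the area of the −log10 p above the threshold. The deposited −log10 p of the summit carries no correction for multiple testing. Coordinates are printed with starts counted from 1.

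Peaks were stitched with a gap of 12.5 kb in python 3.11.15 with pandas 2.3.3 and overlapped with bedtools 2.31.1 (1 bp or more). Shares have 95% Wilson intervals from scipy 1.17.1. Stitching and overlap were tested on simulated data. Regions named are the 10 members with the largest AUC sum, the 5 with the most peaks, the 5 largest with no muscle or liver peak, the 5 largest with a region open in all 3 lists, those on both sides of the threshold, and those at genes of the lists. The members and gene lists were chosen with earlier results of these data known. Gene starts on the same build came from the authors' annotation of the parts used here. Gene order came from RefSeq on the Tharparkar assembly between flanking genes at most 1 Mb apart, with distances within 20% in both builds. The sequence of the members was not analysed here.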

Additional observations from a re-analysis of the deposited data

Results flagged for a closer look

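Strong domains also occur in sequence that the rule leaves out. In the first 1 Mb of chromosomes 1 to 29, 18 stitched hypothalamus domains had an AUC sum at or over that of the weakest member, 48680, and all 18 met a muscle peak and 17 a liver peak. The strongest of these, at 23:649-52664, had 3 peaks and a sum of 310823, more than any member. On chromosome X from 1 Mb on, 7 domains reached that sum, and all 7 met a muscle peak and a liver peak. On unplaced sequences, 87 domains reached it, all 87 of them met by both tissues, and the highest sum was 480887. No control sample was made, and these places were compared only with the weakest member.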

How the results depend on the processing

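Of 155 values computed again under alternatives, 106 stayed within 1.5 times of the value reported (medians within their 95% interval). Which domains were members changed most with the measure that ranked them. Ranked by the highest summit, 51 members were kept, and by the strongest single peak 141, whereas between 202 and 294 of the 300 were kept with another gap, a stricter summit or more sequence. Keeping 100 domains kept 100 by construction. The share of members met by neither tissue was 8.0% with a gap of 5000 bp, 0.667% with 25000 bp, 0% ranked by the highest summit or with 100 domains, 7.20% with 1000 domains and 8.67% with a summit of at least 5. The overlap with the strongest liver domains was 18.7% with a gap of 5000 bp and 17.0% with 100 domains, and that with the strongest muscle domains was 60.3% ranked by the highest summit, where 30.1% of member peaks met a liver peak. With 50% of a peak covered, 23.0% of members met a liver peak, 21.3% both and 21.0% neither, and 15.5% and 2.58% of member peaks met muscle and liver peaks. At AUC over 8000 this rule, added after seeing the data, gave 25.8% for members against 40.2% in muscle and 4.66% against 6.03% in liver, where the intervals overlapped. For these values the cause was not tested.

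No paired analysis was possible because the lists hold no value per heifer, and for the same reason no value was computed without a heifer. Other windows for gene starts were not run. AUC grows with depth, which the lists do not give, and the mapping statistics of the paper were not used here.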
